A study of Mus musculus with 38 samples.

Results

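The switch of male germ cells from mitosis to meiosis was followed through 7 genes that are known to act at this step: Stra8, Meioc, Ythdc2, Dmrtb1, Dmrt1, Sohlh1 and Sohlh2. They were chosen by name, out of 18022 genes that the arrays measure and that have a place on the mouse genome, and each of the 7 was read by 1 probe set. The samples were whole testes of single males of 5 or 7 days post partum (dpp), with 38 arrays in all. At both ages the strains were (B6-ChrXTMSM x B6-Chr1MSM)F1, called F1 here, B6-ChrXMSM, B6-ChrXTMSM, MSM and B6, with 3 males each except for the 8 F1 males of 7 dpp. XS39-tel was sampled at 5 dpp only, with 3 males. B6 is a laboratory strain and MSM an inbred strain of Japanese wild mice, Mus musculus molossinus. B6-ChrXMSM carries nearly the whole X chromosome of MSM in a B6 background, B6-ChrXTMSM carries the distal part of it and XS39-tel a shorter and more distal stretch. The F1 males had a B6-ChrXTMSM mother and a B6-Chr1MSM father, so that they carry the MSM distal X and 1 copy of chromosome 1 from MSM. Males of B6-ChrXMSM are sterile and form few primary spermatocytes. The series asks how far the X chromosome of another subspecies disturbs the start of meiosis in young testes, and whether chromosome 1 of MSM changes that. None of the 7 genes is on the X chromosome or on chromosome 1, so in the substitution strains and in the F1 males all 7 are B6 copies, and in MSM they are MSM copies.

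In the mouse testis, spermatogonia divide by mitosis and become competent for meiosis through a small set of regulators. SOHLH1 and SOHLH2 are basic helix-loop-helix factors of differentiating spermatogonia. DMRT1 is a DM-domain factor that holds germ cells in the spermatogonial programme and is also made by Sertoli cells, while DMRTB1 (also called DMRT6) is a DM-domain factor that shuts down that programme as spermatogonia mature. Retinoic acid switches on STRA8, a transcription factor that starts the meiotic programme, and MEIOC with the RNA helicase YTHDC2 then removes mitotic transcripts so that meiotic prophase can go on. Juvenile testes of the ages sampled here hold mostly spermatogonia and Sertoli cells, with the earliest steps towards meiosis in the older group.

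The stretches upstream of 4 of these genes are shown first, because Stra8, Meioc, Sohlh1 and Sohlh2 are the genes on which most of the differences below turn. They are the 250 bases before the annotated start in RefSeq's GRCm38.p6 annotation, 5′ to 3′ on the strand of the gene, and the table used holds 5 of the 7 genes. The capitals mark 1 chosen motif in each: AGGTCA, the half-site of retinoic acid receptors, in Stra8; GCGGGAAA, an E2F site, in Meioc; CACGTG, an E-box, in Sohlh1; and CNCCTCAG, the element known for STRA8 with MEIOSIN, in Sohlh2. The stretches are chr6:34920698-34920947 (plus strand) for Stra8, chr11:102665335-102665584 (plus) for Meioc, chr2:25847249-25847498 (minus) for Sohlh1 and chr3:55181794-55182043 (plus) for Sohlh2.
Stra8: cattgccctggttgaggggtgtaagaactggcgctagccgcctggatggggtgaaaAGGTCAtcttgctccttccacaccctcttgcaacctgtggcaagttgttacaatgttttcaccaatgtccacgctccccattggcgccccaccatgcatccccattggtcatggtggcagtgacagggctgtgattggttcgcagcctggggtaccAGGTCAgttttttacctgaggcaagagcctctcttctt
Meioc: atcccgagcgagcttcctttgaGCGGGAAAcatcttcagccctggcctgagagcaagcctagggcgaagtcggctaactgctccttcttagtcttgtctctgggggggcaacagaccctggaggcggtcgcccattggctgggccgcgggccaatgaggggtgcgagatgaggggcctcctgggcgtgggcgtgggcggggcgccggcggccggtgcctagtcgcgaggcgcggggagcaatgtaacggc
Sohlh1: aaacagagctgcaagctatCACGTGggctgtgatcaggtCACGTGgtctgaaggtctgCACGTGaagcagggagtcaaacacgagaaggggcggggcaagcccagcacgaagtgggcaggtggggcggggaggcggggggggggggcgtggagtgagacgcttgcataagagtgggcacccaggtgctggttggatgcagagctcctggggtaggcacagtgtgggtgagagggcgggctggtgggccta
Sohlh2: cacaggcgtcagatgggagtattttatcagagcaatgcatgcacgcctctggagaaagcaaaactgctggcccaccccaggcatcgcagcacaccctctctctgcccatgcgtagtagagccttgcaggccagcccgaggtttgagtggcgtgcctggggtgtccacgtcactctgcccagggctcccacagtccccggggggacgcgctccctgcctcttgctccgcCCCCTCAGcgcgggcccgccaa

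Stra8 held AGGTCA at 194 and 38 bases before the start, Meioc held GCGGGAAA at 228 bases, Sohlh1 held CACGTG at 231, 211 and 192 bases and Sohlh2 held CNCCTCAG at 22 bases, with both strands searched. Of 32851 promoters of the same length, 14.0% held AGGTCA, 0.895% held GCGGGAAA, 6.02% held CACGTG and 6.42% held CNCCTCAG. Every motif was searched in every stretch, and the 1 marked is among those the stretch held, so these shares do not test the matches. A further AGGTCA in Sohlh1, at 215 bases, overlaps the middle CACGTG. The core of the DMRT1 motif, searched as GNTACA, was in the stretches of Stra8 at 148 bases and of Meioc at 9 bases, as in 24.7% of all promoters. Dmrtb1 has 2 annotated starts, and the stretches before them held no motif searched other than CANNTG, the general E-box, which 66.2% of promoters hold, in both, and GNTACA in 1 of them. These matches describe letters only. The annotated span of Stra8 itself runs from 34920163 to 34939344 on chromosome 6, so the start used for its stretch lies inside that span. The other spans are chromosome 11, 102665351 to 102682240, for Meioc, chromosome 2, 25842995 to 25847248, for Sohlh1, chromosome 3, 55182044 to 55209957, for Sohlh2, chromosome 4, 107676288 to 107704011, for Dmrtb1, chromosome 19, 25505618 to 25604328, for Dmrt1 and chromosome 18, 44827730 to 44889720, for Ythdc2.

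The values were log2 signals after robust multi-array averaging (RMA), as deposited. A probe set entered a comparison when the mean of at least 1 of its groups was above a signal of 10 (3.32 on the log2 scale), the limit that the study's methods apply to a pair of groups. A gene was called higher or lower when limma's moderated test gave a Benjamini-Hochberg adjusted p under 0.05 over all probe sets kept and the difference was at least 1.5-fold. Signals of different probe sets are not comparable, so each gene is compared with itself only. Replicate arrays correlated at 0.989 to 0.997 within a group, and the array medians lay between 2.63 and 2.71. The germ cell markers, led by Ddx4 and Dazl, and the Sertoli cell markers, led by Amh and Sox9, were above the limit in every group except Tdrd1, Tex101, Mov10l1, Gata1, Krt18, Krt8 and Rhox5 in some. Fat cell markers varied widely between single testes, from 24.39 to 617.40 as a summed linear signal in the 3 B6 testes of 5 dpp. The 8 F1 arrays of 7 dpp fell into 2 sets: the first principal component, with 44.3% of the variance over 19296 probe sets, had one sign in replicates 1 to 4 and the other in replicates 5 to 8. The labels name no batch, and the comparisons of the F1 males of that age are given over all 8 and within both sets.

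**Figure D1:**
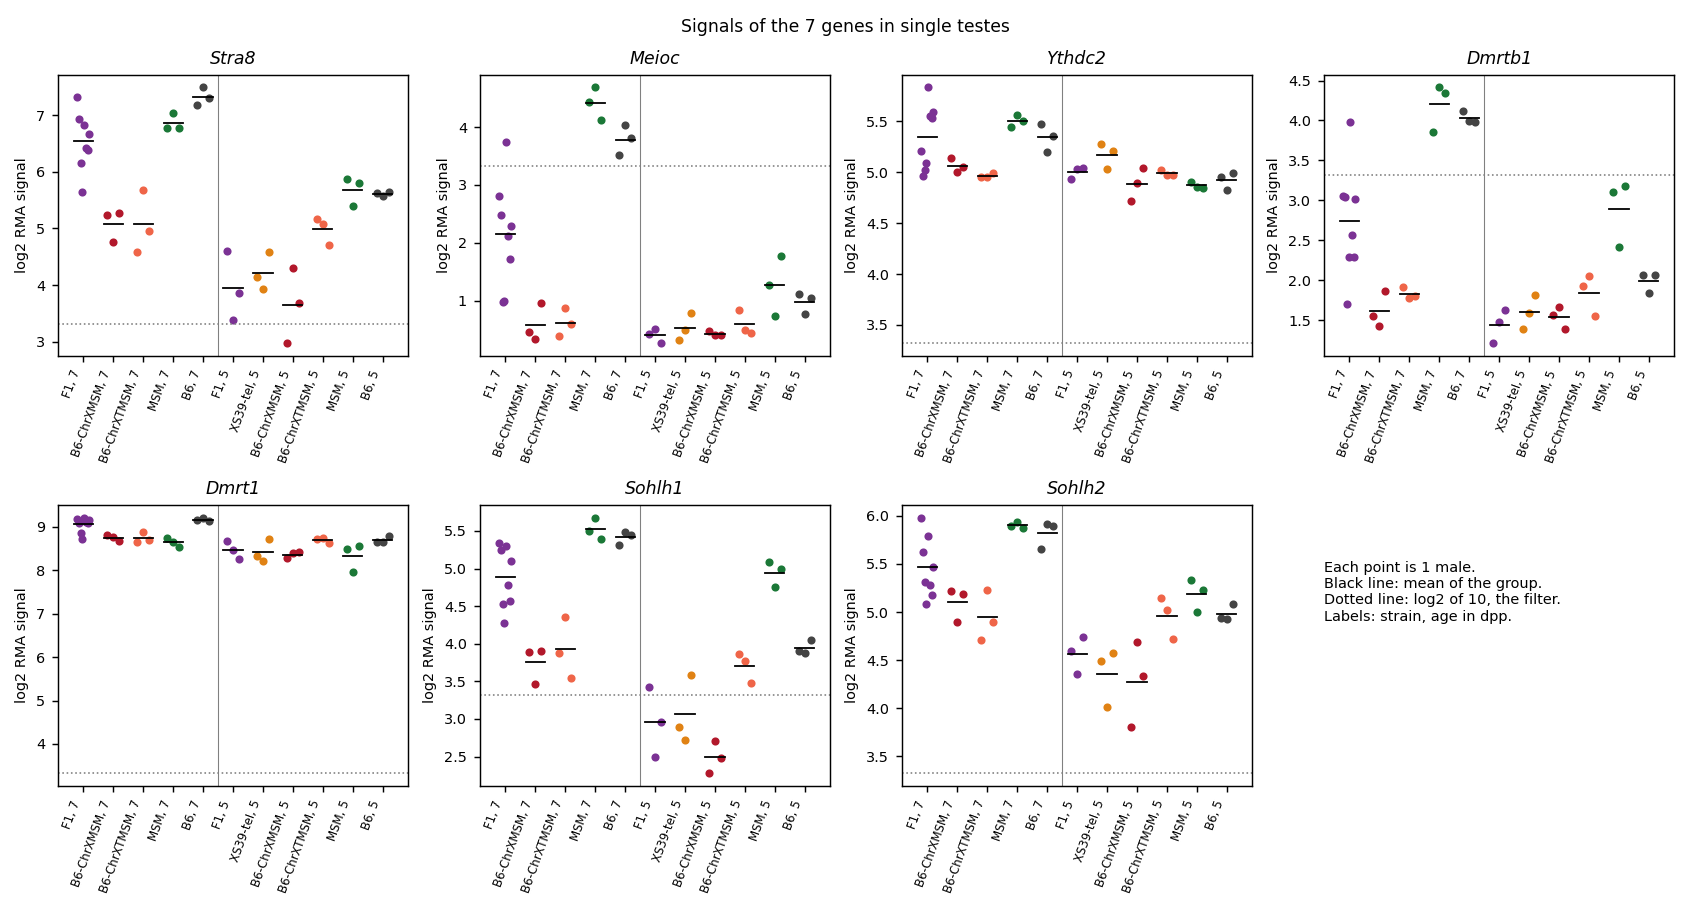
Log2 RMA signal of the 7 genes (vertical axes) in each of the 38 testes, with the 5 groups of 7 dpp left of the 6 groups of 5 dpp. Points are males, black lines are group means and the dotted line is the limit of 3.32. At 7 dpp the points of B6-ChrXMSM and B6-ChrXTMSM lie below all of B6 for every gene, and the range of the 8 F1 males overlaps that of B6 for each of the 7.

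In B6 testes, Stra8, Sohlh1 and Sohlh2 rose between the ages: of the 5 genes above the limit at both ages, these 3 were called higher at 7 dpp than at 5 dpp, where 4.15% of all 17214 probe sets tested were called higher. Also called higher were Meioc and Dmrtb1, which passed the filter only through 7 dpp. Stra8, the retinoic acid target that starts meiosis, had signals of 7.18, 7.49 and 7.31 at 7 dpp, against 5.62, 5.58 and 5.64 at 5 dpp. The groups were far apart, and the difference was 1.71 ± 0.08 on the log2 scale (SE, 3.28-fold, limma adjusted p = 2.22e-05). Meioc had signals of 3.52, 4.03 and 3.81 at 7 dpp, against 1.12, 0.77 and 1.05 at 5 dpp, and Dmrtb1 had 4.12, 4.0 and 3.98, against 2.06, 1.84 and 2.07. Both genes were under the limit in every B6 testis of 5 dpp and above it in every one of 7 dpp, and so they have no measured level at 5 dpp. Set against the limit, the older group was at least 1.38-fold higher for Meioc and at least 1.63-fold higher for Dmrtb1, while the fitted differences were 2.80 ± 0.14 (SE, limma adjusted p = 2.76e-05) and 2.04 ± 0.08 (SE, adjusted p = 1.6e-05). Sohlh1 averaged 5.42 at 7 dpp and 3.94 at 5 dpp, a difference of 1.48 ± 0.07 (SE, adjusted p = 2.22e-05). Sohlh2, its usual partner, differed by 0.84 ± 0.08 (SE, adjusted p = 0.000248). Ythdc2 and Dmrt1 passed the p-value but not the fold: their differences were 0.42 ± 0.08 and 0.47 ± 0.05 (SE, limma adjusted p = 0.00427 and 0.000506). The germ cell markers moved too: all 9 of 9 were called higher at 7 dpp, and their summed signal was 1354 to 1500 at 7 dpp, against 657 to 734 at 5 dpp. Among them Tdrd1 averaged under the limit at 5 dpp and was tested only through 7 dpp. In a bulk sample, more or fewer germ cells and more or less RNA per cell cannot be told apart, and the share of these markers in the result was not tested.

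In MSM testes Stra8, Sohlh2 and Ythdc2 were called higher at 7 dpp, where 7.61% of 17548 probe sets were. Meioc and Dmrtb1 were called too (at least 2.13-fold and 1.84-fold higher against the limit). They were again tested only through the older group and are not counted against that share. Stra8 (difference 1.17 ± 0.13), Meioc (3.15 ± 0.24), Dmrtb1 (1.30 ± 0.21) and Sohlh2 (0.71 ± 0.09) were called, and so was Ythdc2 (0.64 ± 0.07, all SE, limma adjusted p between 4.22e-05 and 0.00123). Ythdc2, the helicase, had signals of 5.45, 5.57 and 5.50 at 7 dpp and 4.90, 4.86 and 4.85 at 5 dpp in MSM, with no overlap. Its call was lost when the arrays were quantile-normalized again, with a difference of 0.58, just under 1.5-fold. Sohlh1 passed the p-value but not the fold (0.58 ± 0.11, adjusted p = 0.00265). Its signals were already 5.09, 4.75 and 5.00 at 5 dpp in MSM. The change between the ages was smaller in MSM than in B6 for Sohlh1 by 0.90 ± 0.14 (SE, limma interaction, adjusted p = 0.000584), a difference called lower, as for 6.29% of the 18319 probe sets tested in that interaction. In 1 fit over all 11 groups that call was lost (adjusted p = 0.057). Stra8 passed the p-value there but not the fold (-0.54 ± 0.17, SE, adjusted p = 0.0281). For Dmrtb1, under the limit at 5 dpp in both strains, the interaction was -0.74 ± 0.26 (SE, adjusted p = 0.0467), and it missed the threshold in 10 of the 12 fits that left out 1 array (adjusted p up to 0.109).

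At 7 dpp, testes of both strains with an MSM-derived X had lower signals of Stra8, Sohlh1 and Sohlh2 than B6 testes. Of the 5 genes above the limit in all 3 strains, these 3 were called lower in B6-ChrXMSM, where 4.62% of 17115 probe sets were called lower, and in B6-ChrXTMSM, where 4.5% of 17122 were. Meioc and Dmrtb1 were also called lower in both, but they entered the test only through B6, where they are high, and are not counted against that background. No member was called higher in either. Both comparisons use the same 3 B6 testes.

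Stra8 had signals of 5.23, 4.75 and 5.27 in B6-ChrXMSM and of 4.58, 5.69 and 4.95 in B6-ChrXTMSM, against 7.18, 7.49 and 7.31 in B6. All 6 testes with the MSM-derived X lay below the lowest B6 testis. The differences were -2.24 ± 0.14 (SE, 4.72-fold lower, limma adjusted p = 2.66e-05) for B6-ChrXMSM and -2.25 ± 0.24 (SE, 4.77-fold lower, adjusted p = 0.000541) for B6-ChrXTMSM.

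Of the RNA-binding pair that clears mitotic transcripts, Meioc was above the limit in B6 alone of the 3 strains. Its signals were 0.46, 0.34 and 0.96 in B6-ChrXMSM and 0.39, 0.88 and 0.59 in B6-ChrXTMSM, against 3.52, 4.03 and 3.81 in B6. Every testis of the 2 substitution strains was under the limit and every B6 testis above it, so that the gene was tested only through B6. The fitted differences were -3.20 ± 0.17 (SE, limma adjusted p = 1.42e-05) for B6-ChrXMSM and -3.17 ± 0.15 (SE, adjusted p = 3.48e-05) for B6-ChrXTMSM, and set against the limit both strains were at least 1.38-fold lower. Ythdc2, the helicase of the pair, had signals of 5.14, 5.00 and 5.05 in B6-ChrXMSM and of 4.96, 4.96 and 4.99 in B6-ChrXTMSM, against 5.48, 5.20 and 5.35 in B6, all below the lowest B6 testis. Its differences, -0.28 ± 0.08 and -0.38 ± 0.07 (SE, limma adjusted p = 0.0228 and 0.00522), did not reach 1.5-fold.

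The DM-domain genes parted in the same way. Dmrtb1 had signals of 1.55, 1.43 and 1.87 in B6-ChrXMSM and of 1.91, 1.78 and 1.80 in B6-ChrXTMSM, against 4.12, 4.0 and 3.98 in B6. It too was under the limit in both substitution strains and was tested through B6 alone. The fitted differences were -2.41 ± 0.11 (SE, limma adjusted p = 8.83e-06) and -2.20 ± 0.06 (SE, adjusted p = 3.6e-06), and set against the limit both strains were at least 1.63-fold lower. Dmrt1, which Sertoli cells also make, had signals of 8.82, 8.77 and 8.67 in B6-ChrXMSM and of 8.65, 8.87 and 8.70 in B6-ChrXTMSM, against 9.16, 9.20 and 9.13 in B6. The ranges were apart, but the differences of -0.41 ± 0.06 and -0.42 ± 0.07 (SE, limma adjusted p = 0.00138 and 0.00246) stayed under 1.5-fold.

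Among the helix-loop-helix pair, Sohlh1 had signals of 3.89, 3.47 and 3.90 in B6-ChrXMSM and of 3.88, 4.36 and 3.55 in B6-ChrXTMSM, against 5.32, 5.49 and 5.45 in B6. Its differences were -1.66 ± 0.12 (SE, 3.16-fold lower, limma adjusted p = 4.1e-05) and -1.49 ± 0.18 (SE, 2.81-fold lower, adjusted p = 0.000742). Sohlh2 had signals of 5.22, 4.90 and 5.19 in B6-ChrXMSM and of 4.71, 5.23 and 4.90 in B6-ChrXTMSM, against 5.65, 5.92 and 5.90 in B6. Its differences were -0.72 ± 0.10 and -0.88 ± 0.13 (SE, 1.65-fold and 1.84-fold lower, limma adjusted p = 0.00122 and 0.00175), and neither strain overlapped B6 for either gene. The calls of Stra8, Sohlh1 and Sohlh2 held in both strains when any single array was left out. Those of Meioc and Dmrtb1 held as well, but both genes were tested only through B6.

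**Figure D2:**
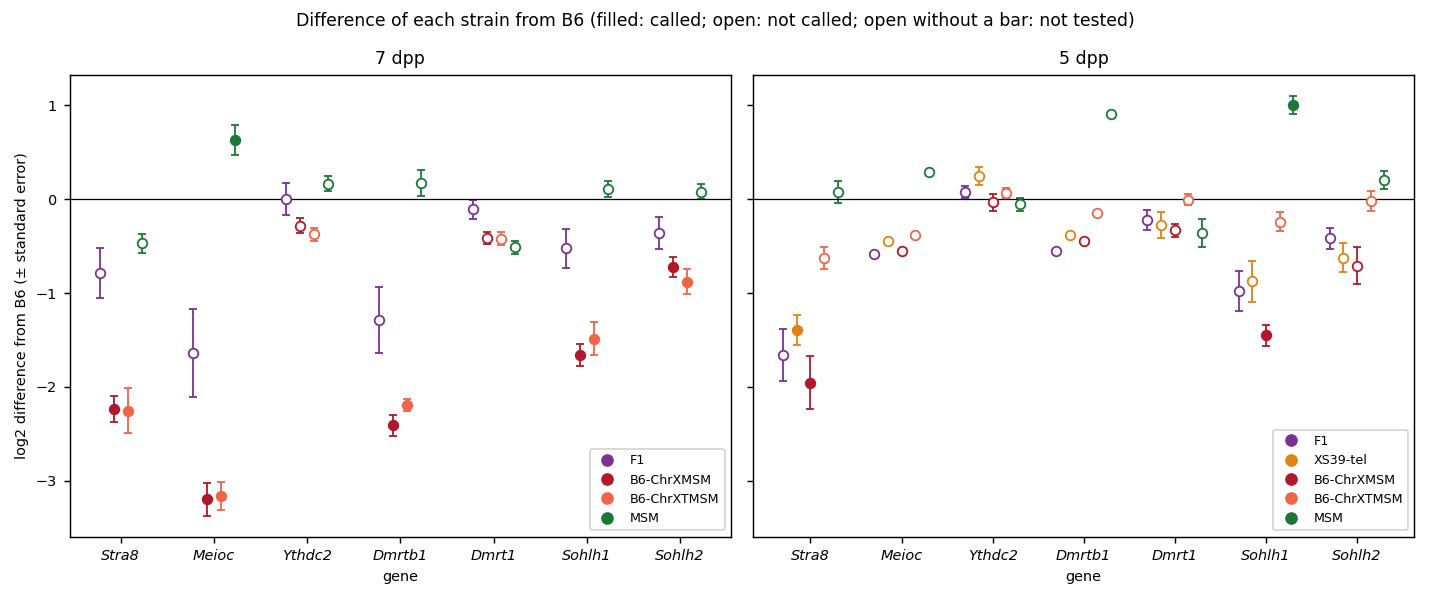
Difference of each strain from B6 of the same age (vertical axis, log2; bars are limma's standard errors) for the 7 genes, with 7 dpp on the left and 5 dpp on the right. Filled points are called and open points without a bar were not tested. At 7 dpp Stra8 and Sohlh1 lie between -1.49 and -2.25 in B6-ChrXMSM and B6-ChrXTMSM, while Ythdc2 and Dmrt1 lie between -0.28 and -0.42, and the fitted values of Meioc and Dmrtb1 set B6 against groups under the limit.

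The difference between the 2 strains themselves was small at 7 dpp. In B6-ChrXMSM against B6-ChrXTMSM limma called 0 of the 5 genes tested, with 0 at an unadjusted p under 0.05, and 0.309% of 16854 probe sets in either direction. The 95% interval of the difference was -0.59 to 0.61 for Stra8, -0.63 to 0.29 for Sohlh1 and -0.16 to 0.47 for Sohlh2, so that differences of up to about these sizes could not be seen with 3 males a strain. Meioc and Dmrtb1 were under the limit in both strains and were not compared.

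Markers of germ cells were lower together with these genes. All 9 of 9 were called lower in B6-ChrXMSM (median difference -1.38, against 0.01 over all probe sets tested) and in B6-ChrXTMSM (median -1.22, against 0.02). Their summed signal was 489 to 660 in B6-ChrXMSM and 498 to 815 in B6-ChrXTMSM, against 1354 to 1500 in B6. Tdrd1 was the only 1 of them under the limit in the substitution strains, and it was tested only through B6. Markers of differentiating spermatogonia were called lower for 6 of 8 tested in each strain and of undifferentiated spermatogonia for 4 of 10. Lmo1 of the first list and Lin28a of the second averaged under the limit in both strains and entered only through B6. Ret, of the second, averaged under it in B6. The summed signal of the differentiating list was not lower, at 1273 to 1397 in B6-ChrXMSM and 1255 to 1353 in B6-ChrXTMSM, against 1195 to 1299 in B6. That of the undifferentiated list was 354 to 417 and 363 to 448, against 501 to 548 in B6. Of the Sertoli cell markers 3 were called higher and 2 lower in B6-ChrXMSM, with summed signals of 7004 to 7441, against 6777 to 7415 in B6. Krt18, Krt8 and Rhox5 averaged under the limit in B6, and Gata1 averaged under it in B6-ChrXMSM. Fabp4, a fat cell marker, averaged under the limit in B6 and entered the test only through the substitution strains, where it was called higher. Its fitted differences were 2.51 and 2.71 (limma adjusted p = 0.0318 and 0.00365), and their size is not established. Summed fat cell signals were 18.73 to 114.99 in B6-ChrXMSM and 20.79 to 74.17 in B6-ChrXTMSM, with at most 14.73 in B6. The part of any of these markers in the differences of the 7 genes was not tested.

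**Figure D3:**
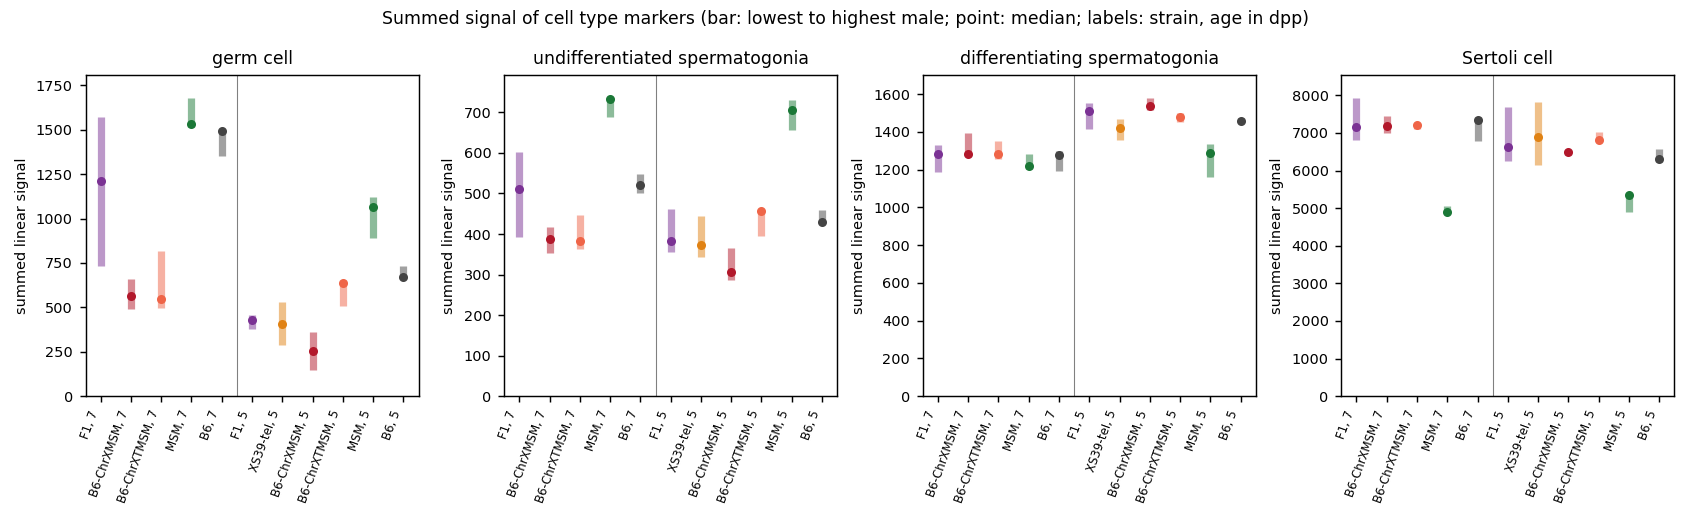
Summed linear signal of 4 marker lists (vertical axes) by strain and age, with the groups of 7 dpp left of those of 5 dpp. Bars run from the lowest to the highest male and points are medians. The germ cell sums of B6-ChrXMSM and B6-ChrXTMSM at 7 dpp, 489 to 815, lie under those of B6, 1354 to 1500, while their Sertoli cell sums, 7004 to 7441, overlap those of B6, 6777 to 7415.

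At 5 dpp the picture was narrower and differed by strain. Of the genes above the limit on average in both groups, Stra8 was called lower in B6-ChrXMSM than in B6, where 1.5% of 16989 probe sets were. Sohlh1 was also called lower, but it entered the test only through B6 and is not counted against that background. Stra8 had signals of 2.98, 4.30 and 3.69 in B6-ChrXMSM, against 5.62, 5.58 and 5.64 in B6, a difference of -1.96 ± 0.28 (SE, 3.89-fold lower, limma adjusted p = 0.0141). The 2 groups were far apart, but the spread in B6-ChrXMSM was wide, and without its replicate 3 or any 1 of the B6 testes the adjusted p was 0.0515 to 0.0599. Sohlh1 had signals of 2.28, 2.71 and 2.49, all under the limit, in B6-ChrXMSM, against 3.90, 3.87 and 4.05 in B6. The fitted difference was -1.45 ± 0.11 (SE, limma adjusted p = 0.00103), and set against the limit B6-ChrXMSM was at least 1.54-fold lower. Dmrt1 passed the p-value but not the fold (-0.33 ± 0.07, SE, adjusted p = 0.0349). Sohlh2 missed the threshold, with 3.80, 4.69 and 4.33 in B6-ChrXMSM, against 4.93, 4.93 and 5.08 in B6 (-0.71 ± 0.20, adjusted p = 0.0871). At this age Meioc and Dmrtb1 were under the limit in every strain. The germ cell markers were lower here as well, with 7 of 8 tested called, and summed to 147 to 359 in B6-ChrXMSM, against 657 to 734 in B6. Tex101 and Mov10l1 averaged under the limit in B6-ChrXMSM and were tested only through B6.

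B6-ChrXTMSM at 5 dpp had 0 of 5 genes called by limma, with 1 at an unadjusted p under 0.05, and 0.307% of 16960 probe sets called in either direction. That gene was Stra8, with 5.17, 5.09 and 4.71 in B6-ChrXTMSM, against 5.62, 5.58 and 5.64 in B6: no overlap, a difference of -0.62 ± 0.11 (SE), and adjusted p = 0.0746. Sohlh1 (-0.24 ± 0.10) and Sohlh2 (-0.02 ± 0.11, SE) had adjusted p of 0.253 and 0.934. Set directly against B6-ChrXTMSM, B6-ChrXMSM had Sohlh1 called lower, at -1.21 ± 0.13 (SE, limma adjusted p = 0.0125, at least 1.30-fold lower against the limit). Sohlh1 entered through B6-ChrXTMSM alone, so the call is not counted against the 0.496% of 16943 probe sets called lower. That call was lost without replicate 3 of B6-ChrXMSM (adjusted p = 0.0604). Stra8 differed by -1.33 ± 0.30 (SE) in the same comparison, with adjusted p = 0.0775. The germ cell markers summed to 506 to 652 in B6-ChrXTMSM at 5 dpp, and none of 8 was called against B6.

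XS39-tel, with the shorter distal stretch of the MSM X, had Stra8 called lower than in B6 at 5 dpp and no other member, where 0.544% of 17103 probe sets were called lower. Stra8 had signals of 4.14, 3.93 and 4.59 in XS39-tel, against 5.62, 5.58 and 5.64 in B6, with no overlap and a difference of -1.39 ± 0.16 (SE, 2.63-fold lower, limma adjusted p = 0.027). The call was lost without XS39-tel replicate 1 or 2 or any 1 of the B6 testes (adjusted p 0.0676 to 0.181). Sohlh1, at 2.89, 2.72 and 3.59, against 3.90, 3.87 and 4.05 in B6, differed by -0.87 ± 0.22 (SE, adjusted p = 0.113). Against B6-ChrXTMSM, limma called 0 of the 5 genes in XS39-tel, with 3 at an unadjusted p under 0.05 and 0.0293% of 17078 probe sets called. The lowest of those adjusted p was 0.134, for Stra8 at -0.77 ± 0.19 (SE). Germ cell markers summed to 287 to 533 in XS39-tel, and 0 of 8 were called against B6, with 6 at an unadjusted p under 0.05.

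The change between the ages was also followed within the X-substitution strains. In B6-ChrXMSM, Stra8 and Sohlh2 were called higher at 7 dpp than at 5 dpp, where 1.33% of 16957 probe sets were. Sohlh1 was called too, but it passed the filter only through 7 dpp and is not counted against that share. The 3 genes called were Stra8 (5.23, 4.75 and 5.27 at 7 dpp, against 2.98, 4.30 and 3.69 at 5 dpp, difference 1.43 ± 0.30, adjusted p = 0.0259), Sohlh1 (1.27 ± 0.14, adjusted p = 0.00356, at least 1.35-fold higher against the limit) and Sohlh2 (0.83 ± 0.20, SE, limma adjusted p = 0.042). Of the germ cell markers, 5 of 8 tested were called higher too (median 1.24, with 8 at an unadjusted p under 0.05), and their part was not tested. Tex101 and Mov10l1 averaged under the limit at 5 dpp and entered only through 7 dpp. The ages did not overlap for any of the 3 genes, but Stra8 was lost in 3 of the 6 fits that left out 1 array (adjusted p up to 0.0967) and Sohlh2 in 5 of them (up to 0.139). In B6-ChrXTMSM limma called 0 of the 5 genes, with 0 at an unadjusted p under 0.05, where 0.839% of 16932 probe sets were called in either direction. Stra8 had signals of 4.58, 5.69 and 4.95 at 7 dpp, against 5.17, 5.09 and 4.71 at 5 dpp in that strain, and the ages overlapped. The 95% interval of its change was -0.53 to 0.70 (7 minus 5 dpp).

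Tested as an interaction, the change between the ages was smaller in B6-ChrXTMSM than in B6 for Stra8, Sohlh1 and Sohlh2, where 3.03% of 17431 probe sets were called lower. Meioc and Dmrtb1 were called too, but they passed the filter only through B6 of 7 dpp and are not counted against that share. The interaction was -1.63 ± 0.31 for Stra8, -2.78 ± 0.23 for Meioc, -2.05 ± 0.16 for Dmrtb1, -1.25 ± 0.23 for Sohlh1 and -0.86 ± 0.19 for Sohlh2 (SE, limma adjusted p between 9.41e-05 and 0.00999). The call of Sohlh2 was lost in 1 fit over all 11 groups (adjusted p = 0.0751). Meioc and Dmrtb1 were above the limit in B6 of 7 dpp only among these groups, here and in the interaction of B6-ChrXMSM, so that the size of their interactions is not established. Ythdc2 and Dmrt1 passed the p-value there, at -0.44 ± 0.09 and -0.42 ± 0.09 (SE), but not the fold. In B6-ChrXMSM the interaction was called only for Meioc (-2.65 ± 0.23, adjusted p = 0.000453) and Dmrtb1 (-1.96 ± 0.16, SE, limma adjusted p = 0.000327). Neither is counted against the 0.692% of 17479 probe sets called lower, for the same reason. Both lost the call in 1 fit over all 11 groups, with adjusted p of 0.0664 and 0.077. For Stra8 in B6-ChrXMSM it was -0.28, with a 95% interval of -1.06 to 0.50, and for Sohlh2 -0.01, from -0.56 to 0.53. The interactions of the 2 substitution strains were not tested against each other. Of the 9 germ cell markers, 9 were called lower in the interaction of B6-ChrXTMSM, with a median of -1.11, against 0.02 over all probe sets, and 0 in that of B6-ChrXMSM, with 0 at an unadjusted p under 0.05. Among them Tdrd1 entered only through B6 of 7 dpp. Fat cell markers moved with age in B6, with 2 of 3 tested called lower at 7 dpp. All 3 averaged under the limit at 7 dpp and were tested only through 5 dpp. The part of either marker list in the interactions was not tested.

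**Figure D4:**
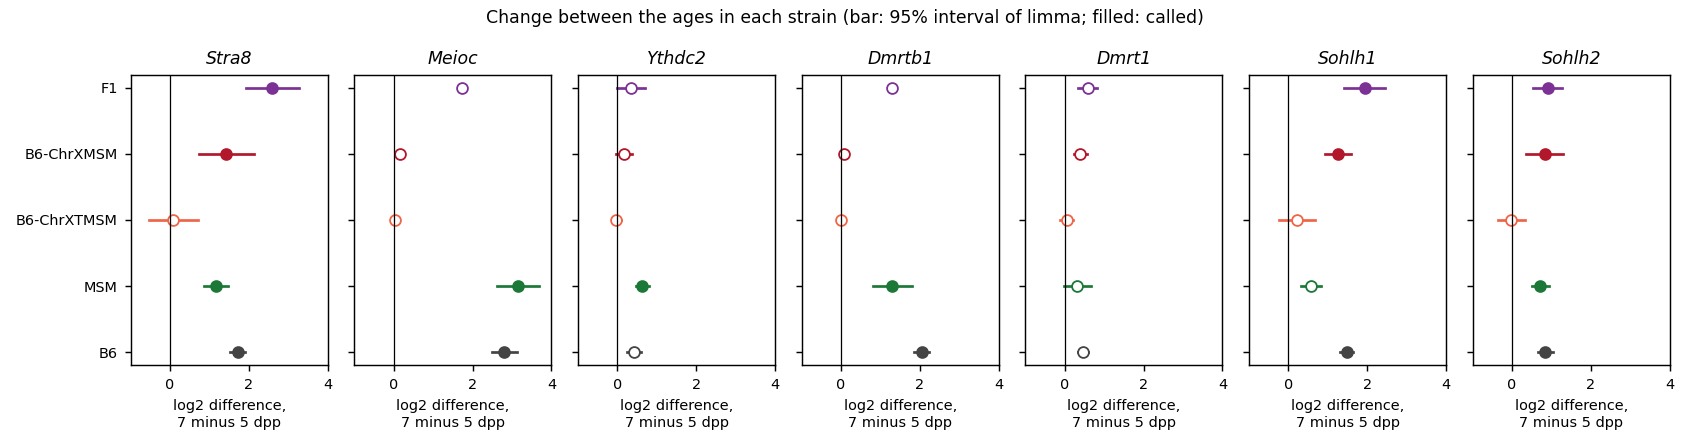
Difference between 7 and 5 dpp (horizontal axes, log2, 7 minus 5 dpp) for the 7 genes within each strain, from F1 at the top to B6 at the bottom. Bars are limma's 95% intervals, filled points are called and open points without a bar were not tested, the bar of Dmrt1 in B6 being hidden by its point. Stra8, Sohlh1 and Sohlh2 were called in F1, B6-ChrXMSM and B6, and the intervals of B6-ChrXTMSM span 0 for all 5 genes tested.

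The F1 males, which add an MSM chromosome 1 to the MSM distal X, overlapped both B6-ChrXTMSM and B6 in Stra8 at 7 dpp. The 8 males had a lowest signal of 5.64, a median of 6.54 and a highest of 7.33, against 4.58, 5.69 and 4.95 in B6-ChrXTMSM and 7.18, 7.49 and 7.31 in B6. The lowest F1 male lay just under the highest B6-ChrXTMSM male, and the highest F1 male lay among the B6 males. Meioc ran from 0.98 through a median of 2.21 to 3.75 and was above the limit in 1 of the 8, as was Dmrtb1, which ran from 1.7 through 2.79 to 3.98. Sohlh1 ran from 4.27 through 4.94 to 5.33 and Sohlh2 from 5.09 through 5.39 to 5.98.

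Against B6-ChrXTMSM at 7 dpp, limma called 0 of the 5 genes tested in the F1 males, with all 5 at an unadjusted p under 0.05, and 0.318% of 16677 probe sets were called in either direction. Stra8 came nearest, at 1.47 ± 0.30 (SE, 2.77-fold higher, adjusted p = 0.0501), followed by Sohlh1 at 0.96 ± 0.24 (adjusted p = 0.0686) and Sohlh2 at 0.52 ± 0.18 (SE, adjusted p = 0.136). Against B6 it called 0 of 7, with 4 at an unadjusted p under 0.05, where 1.73% of 16747 probe sets were called. The values were -0.78 ± 0.27 for Stra8 (adjusted p = 0.0945), -1.64 ± 0.47 for Meioc (0.0622) and -1.29 ± 0.35 for Dmrtb1 (SE, adjusted p = 0.0534). Meioc and Dmrtb1 averaged under the limit in the F1 males, at 2.14 ± 0.93 and 2.74 ± 0.69 (SD, n = 8).

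Within the sets of F1 arrays, Stra8 differed from both strains by much the same amount, and the sets differed in spread. With replicates 1 to 4 alone, Stra8 differed from B6-ChrXTMSM by 1.44 (adjusted p = 0.186) and from B6 by -0.81 (adjusted p = 0.226), and 0 genes were called in either comparison. With replicates 5 to 8 alone, Stra8 differed from B6-ChrXTMSM by 1.5 (adjusted p = 0.00183) and from B6 by -0.76 (limma adjusted p = 0.0014). The genes called were Stra8, Sohlh1 and Ythdc2 above B6-ChrXTMSM, and Stra8 below B6. Meioc and Dmrtb1 were also called below B6, but they passed the filter only through B6. The share of all probe sets called was not computed for the fits within the sets, so these calls have no background. Against B6-ChrXTMSM, Sohlh1 differed by 0.92 with replicates 1 to 4 and by 1.01 with replicates 5 to 8 (adjusted p = 0.205 and 0.00697), and Sohlh2 by 0.56 and 0.48 (adjusted p = 0.258 and 0.0422). Against B6, Sohlh1 differed by -0.57 and -0.48 (adjusted p = 0.221 and 0.0352) and Sohlh2 by -0.32 and -0.39 (adjusted p = 0.349 and 0.0481). The difference from B6 was -1.97 and -1.31 for Meioc (adjusted p = 0.0826 and 0.0269) and -1.51 and -1.07 for Dmrtb1 (adjusted p = 0.0615 and 0.0285), both averaging under the limit in either set. Dmrt1 differed from B6-ChrXTMSM by 0.22 and 0.41 and from B6 by -0.20 and -0.02, all under 1.5-fold. Stra8 ran from 5.64 to 7.33 in replicates 1 to 4 and from 6.38 to 6.83 in replicates 5 to 8. Ythdc2 was the gene that parted with the sets, at 4.97 to 5.21 in replicates 1 to 4 and 5.53 to 5.83 in replicates 5 to 8. Its difference from B6-ChrXTMSM was 0.10 with the first 4 and 0.66 with the other 4. Against a mean of 5.34 in B6, Ythdc2 averaged 5.07 in the first 4, below B6, and 5.63 in the other 4, above it. Whether the sets differ by handling or by the animals cannot be told apart here.

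Over the 8 F1 males of 7 dpp, the relation of Stra8 to the other genes was computed for 6 genes, with exact permutation tests, two-sided, adjusted over the 6. Meioc and Dmrtb1 were above the limit in 1 of the 8 males, so that nearly all of their values lie where levels have no reliable order, and their coefficients are given as values only. Sohlh1 had the highest coefficients (Pearson r = 0.94, p = 4.96e-05, adjusted p = 0.000298; Spearman rho = 0.98, p = 0.000397, adjusted p = 0.00238). Sohlh2 (r = 0.91, p = 0.00129, adjusted p = 0.00387; rho = 0.90, p = 0.00456, adjusted p = 0.00685) had the next by Pearson's r, by exact permutation. Dmrt1 had r = 0.86 (exact permutation p = 0.00295, adjusted p = 0.0059) but rho = 0.71 (p = 0.0576, adjusted p = 0.0691). Meioc had r = 0.80 and Dmrtb1 r = 0.67, each with rho = 0.90, and both still count among the 6 of the adjustment. For Ythdc2 r was 0.18 (exact permutation p = 0.666, adjusted p = 0.666) and rho 0.14 (p = 0.752, adjusted p = 0.752).

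Without the 2 males farthest from the median of Stra8, r was 0.96 for Sohlh1, 0.83 for Sohlh2, 0.83 for Meioc, 0.87 for Dmrtb1, 0.71 for Dmrt1 and 0.16 for Ythdc2, and with 6 males none of the exact permutation p, adjusted over the 6, was under 0.05. The rho of Dmrt1 was 0.43 without those 2 males. With the mean of each set of 4 arrays taken out and permutation within the sets, r was 0.95 for Sohlh1, 0.93 for Sohlh2, 0.999 for Dmrt1 and 0.36 for Ythdc2 (exact permutation p, adjusted over the 6, = 0.00347, 0.00347, 0.00347 and 0.368). As values only, r was 0.85 for Meioc and 0.69 for Dmrtb1. The germ cell marker sum of the single F1 males ran from 731 to 1572, with 743 and 731 in replicates 3 and 4, which also had the lowest Stra8, 6.15 and 5.64. Its part in the relations was not tested.

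**Figure D5:**
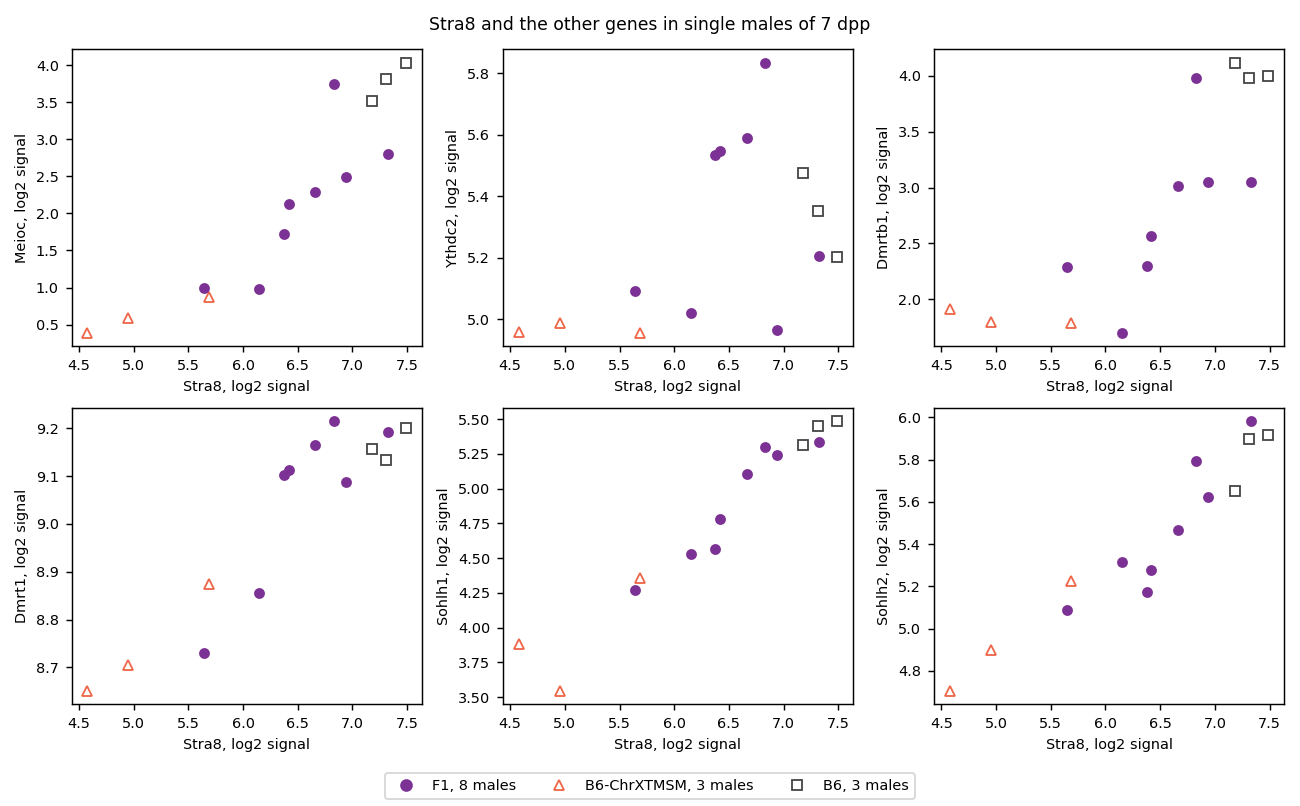
Log2 signal of 6 genes (vertical axes) against that of Stra8 (horizontal axes) in single testes of 7 dpp: 8 F1 males (filled circles), 3 B6-ChrXTMSM males (triangles) and 3 B6 males (squares). Sohlh1 and Sohlh2 climb with Stra8 over the F1 males (r = 0.94 and 0.91), and Ythdc2 does not follow it (r = 0.18).

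At 5 dpp the F1 males were not above B6-ChrXTMSM for Stra8. They had signals of 4.61, 3.39 and 3.86, against 5.17, 5.09 and 4.71 in B6-ChrXTMSM and 5.62, 5.58 and 5.64 in B6, with every F1 male below both other groups. Limma called 0 of 5 genes against B6-ChrXTMSM, with 3 at an unadjusted p under 0.05 and 0.0481% of 16637 probe sets called, and Stra8 differed by -1.04 ± 0.30 (SE, adjusted p = 0.339). It called 0 of 5 against B6 too, with 3 at an unadjusted p under 0.05 and 0.544% of 16743 called, and Stra8 differed by -1.66 ± 0.28 (SE, adjusted p = 0.0619). The germ cell markers summed to 378 to 455 in these F1 males, against 506 to 652 in B6-ChrXTMSM and 657 to 734 in B6.

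Between the ages, Stra8 and Sohlh2 were called higher in the F1 males at 7 dpp, where 2.95% of 16825 probe sets were. Sohlh1 was called too, but it passed the filter only through 7 dpp and is not counted against that share. Stra8 differed by 2.59 ± 0.31 (6.02-fold, adjusted p = 0.00269), Sohlh1 by 1.93 ± 0.24 (adjusted p = 0.00269) and Sohlh2 by 0.90 ± 0.17 (SE, limma adjusted p = 0.00633), with no overlap between the ages. Sohlh1 averaged 4.89 ± 0.41 (SD, n = 8) at 7 dpp and was under the limit on average at 5 dpp, so that it was at least 2.97-fold higher. The calls of Stra8 and Sohlh2 held within either set of 4 arrays, and so did that of Sohlh1, tested only through 7 dpp. Dmrt1 passed the p-value but just missed the fold (0.58, limma adjusted p = 0.00687). It became called in some alternatives, such as with the median of each array subtracted (0.60). The germ cell markers moved in the same direction, with 8 of 8 tested called higher (median 1.39), as did 6 of 8 markers of differentiating spermatogonia, with 1 called lower, and their part was not tested. Neurog3, of the latter list, averaged under the limit at 5 dpp and entered only through 7 dpp. The change was not called different from that of B6 for any gene: limma gave 0 of 7, with 0 at an unadjusted p under 0.05 and 0.0116% of 17180 probe sets called, and the 95% interval for Stra8 was -0.03 to 1.78. Within either set of arrays it also gave 0, and the interaction for Stra8 was 0.85 with replicates 1 to 4 and 0.90 with replicates 5 to 8 (adjusted p = 0.931 and 0.0758). Against the change in B6-ChrXTMSM it gave 0 of 5, with 4 at an unadjusted p under 0.05 and 0.0177% of 16987 called. The interaction for Stra8 there was 2.51 ± 0.48 (SE, adjusted p = 0.14), and it was called with replicates 5 to 8 alone (2.53, adjusted p = 0.00195) but not with replicates 1 to 4 alone (2.48, adjusted p = 0.275).

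MSM itself, with the same X in its own background, had no member called lower than B6 at either age. At 7 dpp 1 gene was called, Meioc, with signals of 4.43, 4.69 and 4.13 in MSM, against 3.52, 4.03 and 3.81 in B6. The difference was 0.63 ± 0.16 (SE, 1.55-fold higher, limma adjusted p = 0.0102), where 9.35% of 17694 probe sets were called higher, and it fell under 1.5-fold without MSM replicate 2 (0.49) or B6 replicate 1 (0.49). Stra8 was lower in MSM by 0.47 and Dmrt1 by 0.51 (limma adjusted p = 0.00486 and 0.000402), both under 1.5-fold. At 5 dpp 1 gene was called, Sohlh1, with 5.09, 4.75 and 5.00 in MSM, against 3.90, 3.87 and 4.05 in B6, a difference of 1.01 ± 0.10 (SE, 2.01-fold higher, adjusted p = 6.03e-05), where 16.2% of 17855 were called higher. These probe sets match B6 sequence, and whether MSM differs from B6 under them was not tested, so the differences of MSM can hold an effect of the probes. With so many probe sets called, 1 member of 5 or 7 is near the background.

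Ordered by mean signal at 7 dpp, B6 led for Stra8 and Dmrt1 and MSM for the other 5 genes. B6-ChrXMSM and B6-ChrXTMSM held the last 2 places for Stra8, Ythdc2, Sohlh1 and Sohlh2, and MSM was last for Dmrt1. For Meioc and Dmrtb1 the means of F1, B6-ChrXMSM and B6-ChrXTMSM were under the limit and have no order. For Stra8 the order was B6 (7.33), MSM (6.86), F1 (6.54), B6-ChrXMSM (5.09) and B6-ChrXTMSM (5.07). The ranges of neighbours overlapped between MSM and F1 and between the 2 substitution strains, and were apart between B6 and MSM and between F1 and B6-ChrXMSM. At 5 dpp the order for Stra8 was MSM (5.69), B6 (5.61), B6-ChrXTMSM (4.99), XS39-tel (4.22), F1 (3.95) and B6-ChrXMSM (3.65), where the ranges were apart only between B6 and B6-ChrXTMSM and between B6-ChrXTMSM and XS39-tel. For Dmrt1 and Sohlh2 all neighbours overlapped at both ages.

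Genes that work with the 7 were taken from lists chosen by name. Of the meiotic prophase genes, such as those of the synaptonemal complex, 15 of 28 measured were tested at 7 dpp and 12 were called lower in B6-ChrXMSM and 12 in B6-ChrXTMSM, with 0 higher and medians of -1.50 and -1.42, against 0.01 and 0.02 over all probe sets. Of all probe sets, 4.62% and 4.5% were called lower. Syce3 and Hormad1 averaged under the limit in both strains and were tested here only through B6. The 3 largest called in B6-ChrXMSM were Tex12, a central element protein (-1.96 ± 0.15, adjusted p = 5.9e-05), Tex11, a meiotic crossover gene on the X chromosome (-1.76 ± 0.14, 7.14e-05), and Sycp3, of the axial element (-1.75 ± 0.13, SE, limma adjusted p = 5.11e-05). Sycp3 had signals of 5.41, 4.88 and 5.21 in B6-ChrXMSM, against 6.83, 7.06 and 6.84 in B6. In the F1 males 0 of 15 were called against B6, and 1 of 15 was called higher than in B6-ChrXTMSM, with 12 at an unadjusted p under 0.05. The latter 15 hold Syce3 and Hormad1, which entered only through F1. With replicates 5 to 8 alone, 1 of 15 was called lower than in B6 and 11 of 15 higher than in B6-ChrXTMSM, and with replicates 1 to 4 alone 0 of 15 and 0 of 14 were, with 8 and 10 at an unadjusted p under 0.05. At 5 dpp 9 of 14 were called lower than B6 in B6-ChrXMSM, 2 of 14 in the F1 males, 0 of 14 in B6-ChrXTMSM (3 at an unadjusted p under 0.05) and 0 of 14 in XS39-tel (9 at an unadjusted p under 0.05). Of all probe sets, 1.5% were called lower in B6-ChrXMSM at that age and 0.544% in either direction in F1. Sycp2, Syce1, Syce3, Tex12, Tex11 and Smc1b averaged under the limit in B6-ChrXMSM and entered that test only through B6. So did Sycp2, Syce3 and Tex11 in XS39-tel, and Syce3 in F1 and B6-ChrXTMSM.

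Of the retinoic acid genes 1 of 11 tested was called lower at 7 dpp in both X-substitution strains. It was Crabp1, which binds retinoic acid in the cytosol, with signals of 3.16, 2.81 and 3.45 in B6-ChrXMSM and 2.98, 4.36 and 3.42 in B6-ChrXTMSM, against 6.12, 6.52 and 6.30 in B6. In B6-ChrXMSM it averaged under the limit, and so was at least 7.96-fold lower than in B6. The fitted differences were -3.18 ± 0.16 and -2.73 ± 0.30 (SE, limma adjusted p = 1.18e-05 and 0.000594), and the receptors, synthesis and breakdown enzymes of the list that were tested gave no call. Of the known targets of SOHLH1, SOHLH2 and DMRT1, 2 of 4 tested were called lower in each strain: Kit, the receptor of differentiating spermatogonia (-1.40 and -1.15), and Sox3, an X-linked factor of spermatogonia (-2.02 and -1.99). Rbm46, which works with MEIOC and YTHDC2 on RNA, was called lower in both (-1.48 and -1.38), and Xrn1, an exonuclease, in neither. Kit and Sox3 are on the list of differentiating spermatogonia as well. None of 13 writers, readers and erasers of the m6A mark was called by limma in either strain, with 2 at an unadjusted p under 0.05 in each. None of 3 other DMRT genes tested was called, with 3 at an unadjusted p under 0.05 in B6-ChrXMSM and 1 in B6-ChrXTMSM. Tex11 and Sox3 are themselves X-linked, and the probe sets tested were not on the study's list of polymorphic ones.

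Over all 38 arrays, the genes whose profile was most like that of each member were found by Pearson's r among 10673 genes, as a description of samples that share strain and age. Stra8 was nearest to Piwil2 (0.97), Pcgf5 (0.97) and Dazl (0.97), and Sohlh1 to Tex12 (0.98), Tex14 (0.98) and Plaa (0.97). Sohlh2 was nearest to Ak4 (0.98), Taf4b (0.97) and Tcfl5 (0.97), Meioc to 1700013H16Rik (0.96), Rhox13 (0.96) and Runx3 (0.96), and Dmrtb1 to M1ap (0.95), Prkag2 (0.95) and Runx3 (0.94). Lower values were found for Dmrt1, with Rnf138 (0.92), Txndc16 (0.91) and 4930447C04Rik (0.91), and for Ythdc2, with Cpeb4 (0.87), Ncbp2 (0.87) and Mfsd14a (0.86). Among the members themselves, Stra8 and Sohlh1 had r = 0.96, Meioc and Dmrtb1 0.96 and Dmrtb1 and Dmrt1 0.47. Meioc and Dmrtb1 averaged above the limit only in the older B6 and MSM males. All coefficients of Meioc and Dmrtb1 here rest mostly on levels without a reliable order. They are given as values only and are not comparable with those of genes above the limit throughout.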

How the data were processed

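Total RNA of whole testes was hybridised by the study to Affymetrix Mouse Genome 430 2.0 arrays, 1 male an array. The deposited values are log2 signals that the authors made with robust multi-array averaging in GeneSpring GX (background correction, quantile normalization and probe summary; version not given in the sources used here). They hold no read depth, so the number of arrays limits precision. Of 45101 probe sets, 34958 name 1 gene, 932 several and 9211 none.

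Each comparison was fitted on the arrays of its groups (both ages of both strains for interactions) with limma 3.58.1 in R 4.3.3, on probe sets whose mean exceeded a signal of 10 in at least 1 group, and tested on simulated data first. Probe sets that the study lists as polymorphic were left out, 233 on the X chromosome and, for F1, 651 on chromosome 1. Males are separate animals. No 2 arrays were identical. Calls needed Benjamini-Hochberg adjusted p under 0.05 and 1.5-fold. At-least folds put the dim group at the limit of 10. The 7 genes, pathway lists and marker lists were chosen with earlier results of these data known. By rule, every member, the 3 genes most like each and the 3 largest called of each pathway list in B6-ChrXMSM against B6 at 7 dpp are named. Alternatives were the filter, array scaling, 1 fit over all groups, a trended robust fit, polymorphic probe sets kept, no fold limit, a replicate block and each array left out. B6-ChrXMSM against B6-ChrXTMSM, the F1 interaction against B6-ChrXTMSM and the 2 sets of F1 arrays were added after seeing the data. The F1 males were not split by phenotype, which the labels do not give.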

Additional observations from a re-analysis of the deposited data

Results flagged for a closer look

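For 9 results the change between 7 and 5 dpp differed from that of B6 by limma's interaction test. In B6-ChrXMSM these were Meioc (-2.65, adjusted p = 0.000453) and Dmrtb1 (-1.96, adjusted p = 0.000327). In B6-ChrXTMSM they were Stra8 (-1.63, adjusted p = 0.00507), Meioc (-2.78, 0.000111), Dmrtb1 (-2.05, 9.41e-05), Sohlh1 (-1.25, 0.00474) and Sohlh2 (-0.86, adjusted p = 0.00999). In MSM they were Dmrtb1 (-0.74, adjusted p = 0.0467) and Sohlh1 (-0.90, adjusted p = 0.000584). Of all probe sets, 0.692% were called lower in the interaction of B6-ChrXMSM, 3.03% in that of B6-ChrXTMSM and 6.29% in that of MSM. Meioc and Dmrtb1 are not counted against these shares. Meioc and Dmrtb1 were above the limit of 10 only in B6 and MSM of 7 dpp and in 1 of the 8 F1 males, so that their interactions rest on the 7 dpp values of B6 or MSM and their size is not established. In 1 fit over all groups, Meioc and Dmrtb1 in B6-ChrXMSM (adjusted p = 0.0664 and 0.077), Sohlh2 in B6-ChrXTMSM (0.0751) and both genes in MSM (0.221 and 0.057) were not called. All use the same 6 B6 testes. No member had a male far from the other F1 males of 7 dpp by Dixon's test.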

How the results depend on the processing

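All counts here are of the 7 genes, and the share of all probe sets called was not computed for the alternatives. The counts include Meioc, Dmrtb1 and Sohlh1 also where these passed the filter through 1 group only. Of 2501 single-gene values under the alternatives, 2374 kept their side of the threshold, 45 were no longer called and 82 became called. Of these values, 0 changed direction with a call in either fit, and changes of direction without a call were not counted. The 2501 include a setting that took any probe set of a gene. With 1 probe set a gene, that setting repeats the main fit. In 1 fit over all groups the count was 3 for XS39-tel against B6 at 5 dpp, 2 for F1 against B6 at 5 dpp, 3 for F1 against B6 at 7 dpp, 0 for MSM against B6 at 7 dpp, 2 for F1 against B6-ChrXTMSM at 7 dpp, 2 for B6-ChrXMSM against B6-ChrXTMSM at 5 dpp, 0 for the B6-ChrXMSM and MSM interactions with age and 2 for the F1 interaction against B6-ChrXTMSM. A trended robust fit gave 1 for B6-ChrXTMSM against B6 at 5 dpp, for F1 against B6 at both ages and for F1 against B6-ChrXTMSM at 7 dpp. Array medians, renewed quantile normalization and polymorphic probe sets kept each gave 1 for F1 against B6-ChrXTMSM at 7 dpp. Without the filter the count was 2 for MSM against B6 at 5 dpp, 1 for B6-ChrXMSM between the ages, 5 for F1 between the ages and 1 for the MSM interaction, and without the fold limit it was 3 for MSM against B6 at 7 dpp. F1 replicates 5 to 8 alone gave 3 against B6 and 3 against B6-ChrXTMSM at 7 dpp, 5 between the ages and 5 for the interaction against B6-ChrXTMSM. Without the 2 males farthest from the median of Stra8, r was 0.71 for Dmrt1, 0.96 for Sohlh1 and 0.83 for Sohlh2, past no threshold. The cause of these changes was not tested.

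With 1 array left out, the count ran from 1 to 3 for B6-ChrXMSM against B6 at 5 dpp, 0 to 3 for XS39-tel against B6, 0 to 2 for F1 against B6 at 5 dpp and 0 to 3 at 7 dpp, 0 to 1 for MSM against B6 at 7 dpp, 0 to 2 for F1 against B6-ChrXTMSM at 7 dpp, 0 to 2 for XS39-tel against B6-ChrXTMSM, 0 to 2 for B6-ChrXMSM against B6-ChrXTMSM at 5 dpp, 1 to 3 for B6-ChrXMSM between the ages, 1 to 3 for the MSM interaction and 0 to 2 for the F1 interaction against B6-ChrXTMSM. The deviations of same-numbered arrays correlated at r from -0.35 to 0.35 over 57 pairs in 19 comparisons, with every pair over 0.1 in 0 of them. With so few males a group this cannot exclude a partial pairing by number. The main fits did not pair the males. With the number as a replicate block the count was 0 for XS39-tel against B6, 0 for B6-ChrXMSM against B6-ChrXTMSM at 5 dpp, 1 for F1 against B6-ChrXTMSM at 7 dpp and 1 for the MSM interaction. Levels under a signal of 10 have no reliable order. This limits Meioc and Dmrtb1 in every group except B6 and MSM of 7 dpp, and Sohlh1 at 5 dpp in B6-ChrXMSM, XS39-tel and F1.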
